A study of Mus musculus with 12 samples.

Results

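The b.End5 endothelioma line was compared with primary mouse brain endothelial cells co-cultured with glia. The 6 arrays, 3 for each group, were taken by their labels from the 12 arrays of the series, and 15204 genes were compared, with every difference given as b.End5 minus co-cultured. The co-cultured cells, called pMBMEC in the labels, were microvascular endothelial cells isolated from mouse brain and kept for 5 days on transwell filters, with mouse glial cultures of 3 weeks in the lower well and no contact between them. The b.End5 arrays carry the label of an established line; as background, the line was made from mouse brain endothelium by introducing the polyoma middle T oncogene. The labels used here give no strain, age or genotype for either group, and no passage, substrate or days in culture for the line. Transformation, time in culture and the presence of glia therefore cannot be told apart in this comparison. The remaining 6 arrays entered the estimate of the spread and the choice of the probe set for a gene, and are set beside some results: 3 of freshly isolated cells sorted with PECAM1 beads (non-cultured) and 3 of pMBMEC kept 5 days on filters without glia (single-cultured). The labels name no sort for the cultured cells. Nothing in them tells whether the 3 arrays of a group were separate cultures; the p-values then cover the spread among these arrays alone, which may be technical.

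Endothelial cells of brain capillaries form the blood-brain barrier. They are sealed by tight junctions, carry nutrients through dedicated transporters, pump out drugs with ATP-driven carriers and make few fenestrae and transport vesicles. Wnt signals from neighbouring neural cells maintain this state, and flowing blood, pericytes and astrocytes contribute to it. Primary cultures and endothelioma lines both serve as models of the barrier in vitro.

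The values are the deposited log2 levels, on which a difference of 1 is a 2-fold difference. The median level of an array lay between 7.21 and 7.40, and 79.4% to 82.9% of the genes lay above the no-target level, which is what 27 control probe sets for bacterial genes reach on an array (their 95th percentile). Where all arrays of a group are no higher than this, the difference is given as a bound ("at least N-fold"). Of the group with the lower level, 2 of the 3 arrays were this low for Meis2, Enpp2, Prnd, Abca5, Pdgfb, Pdpn and Slco1c1, and 1 of 3 for Col23a1, Oas3, Robo1, Slc7a3, Apcdd1, Bmp2, Igf1r, Ocln, Sox17 and Sparcl1, so that their fitted differences rest partly on such values. Within b.End5, the array labelled replicate 2 was unlike the others: 1073 genes lay more than 1 log2 unit from the mean of the remaining b.End5 arrays. Between the single arrays b.End5 replicates 1 and 3, 42 genes differed this much. Measured as the 1073 were, co-cultured replicates 1, 2 and 3 lay this far from the other co-cultured arrays at 436, 143 and 383 genes. The correlation of b.End5 replicate 2 with b.End5 replicates 1 and 3 across genes was 0.969 and 0.968, while theirs was 0.995 and the co-cultured arrays lay between 0.986 and 0.991. Its level of Xist, the RNA of the inactive X chromosome, was 6.20, against 12.10 and 12.48 on b.End5 arrays 1 and 3. The Y-linked gene Eif2s3y was 9.24 on it, against 3.14 and 3.11, and Ddx3y was 7.84, against 2.83 and 2.65. Whether b.End5 replicate 2 came from the same cells as b.End5 arrays 1 and 3 was not tested. Results that rest on replicate 2 are given with and without it.

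Of the 15204 genes, 776 (5.10%) were higher in b.End5 and 1210 (7.96%) were lower, at an adjusted p under 0.05 by limma and a difference of at least 2-fold. The counts of list members given below stand against these shares of all genes. Large differences were mostly falls: 161 genes were more than 16-fold lower and 44 more than 16-fold higher. The median difference over all genes was 0.10, and it was 0.00 after cyclic loess and 0.17 with each array centred on its median. The 3 against 3 arrays did not overlap for 44.4% of all genes, so that the absence of overlap by itself says little about a gene. Without b.End5 replicate 2, 877 genes (5.77%) were higher and 1234 (8.12%) lower, and 1787 of the 1986 calls were made in both fits. The level in b.End5 was at the no-target level for 171 of the lower genes, and the level in the co-cultured cells for 48 of the higher genes.

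**Figure D1:**
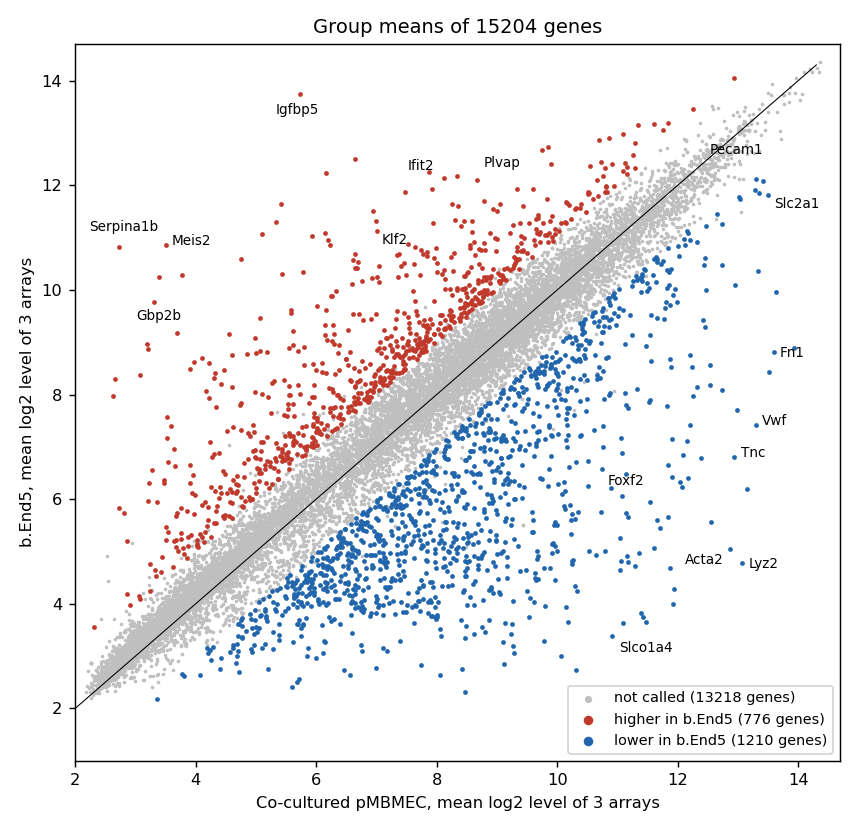
Mean log2 level of 15204 genes over the 3 co-cultured arrays (horizontal) and the 3 b.End5 arrays (vertical), with the line of equality. The 776 genes called higher in b.End5 are red, the 1210 called lower are blue and the rest are grey; more blue than red points lie far from the line.

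The largest rises were of genes with different functions. Igfbp5, a secreted protein that binds insulin-like growth factors, had levels of 6.46, 5.26 and 5.48 in the co-cultured cells and 13.70, 13.64 and 13.92 in b.End5; the difference was 8.02 (SE 0.35, adjusted p = 1.92e-08). Serpina1b, a member of the alpha-1 antitrypsin family whose near-identical copies may share its probes, had co-cultured levels of 2.67, 2.80 and 2.74 and b.End5 levels of 10.71, 11.78 and 9.99. The co-cultured cells were at the no-target level, and b.End5 was at least 107-fold higher (adjusted p = 1.78e-08). Meis2, a TALE homeobox transcription factor, had log2 levels of 4.32, 2.89 and 3.31 on the co-cultured arrays and 11.55, 9.55 and 11.50 on the b.End5 arrays; it was higher by 7.36 (SE 0.49, adjusted p = 5.92e-07), and by 8.02 without b.End5 replicate 2, with 2 of the 3 co-cultured arrays at the no-target level. Col13a1, a transmembrane collagen, was higher by 6.23 (SE 0.55, adjusted p = 5.84e-06), and Sh3gl3, an endophilin of vesicle uptake, by 5.96 (SE 0.16, adjusted p = 7.76e-10). Absence of overlap between the groups was a condition for choosing these genes, and it held for 44.4% of all genes.

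The largest falls included genes of several cell types. Enpp2, the enzyme autotaxin that makes lysophosphatidic acid, had levels of 11.90, 12.06 and 11.79 in the co-cultured cells and 4.11, 4.53 and 3.38 in b.End5; the difference was -7.91 (SE 0.25, adjusted p = 1.85e-09). Sparcl1, a matricellular protein of brain vessels and glia, was lower at -7.65 (SE 0.24, adjusted p = 1.76e-09), and Prnd, a prion-like protein of developing brain endothelium, at -7.82 (SE 0.38, adjusted p = 4.68e-08). Uchl1, a ubiquitin hydrolase abundant in neurons, had co-cultured levels of 10.77, 11.35 and 11.13 and b.End5 levels of 3.80, 3.41 and 3.69. It was at the no-target level in b.End5 and at least 112-fold lower (adjusted p = 9.73e-10). Bex1, an adaptor protein, was likewise at the no-target level in the line and at least 65.3-fold lower (adjusted p = 2.21e-09).

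Markers of other cells separated the groups strongly. Of 47 measured microglia and macrophage markers, 30 were lower in b.End5 and 2 higher, with a median difference of -2.19 against 0.10 over all genes. Lyz2, macrophage lysozyme, had log2 levels of 13.58, 12.94 and 12.68 on the co-cultured arrays and 4.50, 5.26 and 4.58 on the b.End5 arrays; the difference was -8.28 (SE 0.27, adjusted p = 1.97e-09). Tyrobp, an adaptor of myeloid receptors, had levels of 11.33, 10.28 and 10.32 in the co-cultured cells and 4.60, 5.23 and 4.98 in b.End5, and it was lower at -5.71 (SE 0.39, adjusted p = 8.35e-07). Ctss, a lysosomal protease of macrophages, was at the no-target level in the line and at least 142-fold lower (adjusted p = 3.04e-08). The markers of resting microglia Cx3cr1 and P2ry12 did not pass, with differences of -0.20 and -0.54. The 2 higher markers were Tmem119, at 1.60 and 0.82 without b.End5 replicate 2, where it no longer passed, and Sirpa, at 1.12. Neither call was firm: Tmem119 was also lost without co-cultured replicate 2 or 3 and without non-cultured replicate 1, and Sirpa, at 0.94, without co-cultured replicate 2. The summed linear level of the list was 51852, 27835 and 22187 on co-cultured arrays 1, 2 and 3, and 6192 to 8540 on the b.End5 arrays. In bulk RNA, fewer cells of a type and less RNA per cell cannot be told apart.

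Contractile, pericyte and fibroblast markers were more often lower than higher. Of 23 smooth muscle contractile genes 12 were lower and 1 higher, of 26 pericyte markers 13 lower and none higher (2 higher at an unadjusted p under 0.05), and of 30 fibroblast and meningeal markers 10 lower and 1 higher. Acta2, smooth muscle actin, had co-cultured levels of 12.89, 13.35 and 12.36 and b.End5 levels of 4.80, 5.24 and 5.12; the difference was -7.81 (SE 0.35, adjusted p = 2.65e-08). Tagln, an actin-binding protein of contractile cells, was lower at -5.78 (SE 0.27, adjusted p = 3.39e-08). Pdgfrb, the receptor that recruits pericytes, had log2 levels of 9.72, 10.50 and 8.69 on the co-cultured arrays and 4.44, 4.52 and 4.82 on the b.End5 arrays, a difference of -5.05 (SE 0.48, adjusted p = 1.05e-05). Zic2, a transcription factor of brain pericytes and meninges, was at least 31.8-fold lower (adjusted p = 1.18e-08), and Rgs5, a pericyte regulator of G-protein signalling, was at least 5.73-fold lower (adjusted p = 1.33e-06). Summed levels were 83702 to 97255 in co-cultured cells against 54131 to 57341 in b.End5 for the contractile list, 6901 to 8727 against 4108 to 4757 for the pericyte list, and 16403 to 31582 against 14948 to 16655 for the fibroblast list. The fibroblast ranges overlapped: the highest b.End5 array exceeded the lowest co-cultured array.

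Glial and neuronal lists were called at shares nearer to that of all genes, of which 13.1% were called in either direction, against 19.2% of the astrocyte, 8.0% of the oligodendrocyte and 17.1% of the neuron markers. Of 26 astrocyte markers 2 were higher and 3 lower, with a median of -0.00; the lower ones were Slco1c1, Htra1 and Atp1b2, of which Slco1c1 is also a transporter of brain endothelium. Atp1b2, at -1.09, was no longer called without co-cultured replicate 2 (-0.72) or b.End5 replicate 3 (-0.99). The summed level of the astrocyte list was 12248 to 13098 on the co-cultured arrays and 9382 to 9986 on the b.End5 arrays, without overlap. Of 25 oligodendrocyte markers 2 were lower, Mbp, the major myelin protein, which was at least 11.9-fold lower (adjusted p = 0.000394), and Tspan2. Of 35 neuron markers 3 were higher and 3 lower. Nefm, a neurofilament subunit, had b.End5 levels of 6.76, 12.17 and 6.20; the co-cultured cells were at the no-target level, and b.End5 was at least 19.6-fold higher (adjusted p = 0.0046), and at least 5.27-fold higher without b.End5 replicate 2, 34.4-fold without replicate 1 and 41.7-fold without replicate 3. On replicate 2 the summed level of the neuron list was 13521, against 1607 and 1720 on the other b.End5 arrays. No erythrocyte or lymphocyte marker of 22 was called by limma, and 5 had an unadjusted p under 0.05.

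**Figure D2:**
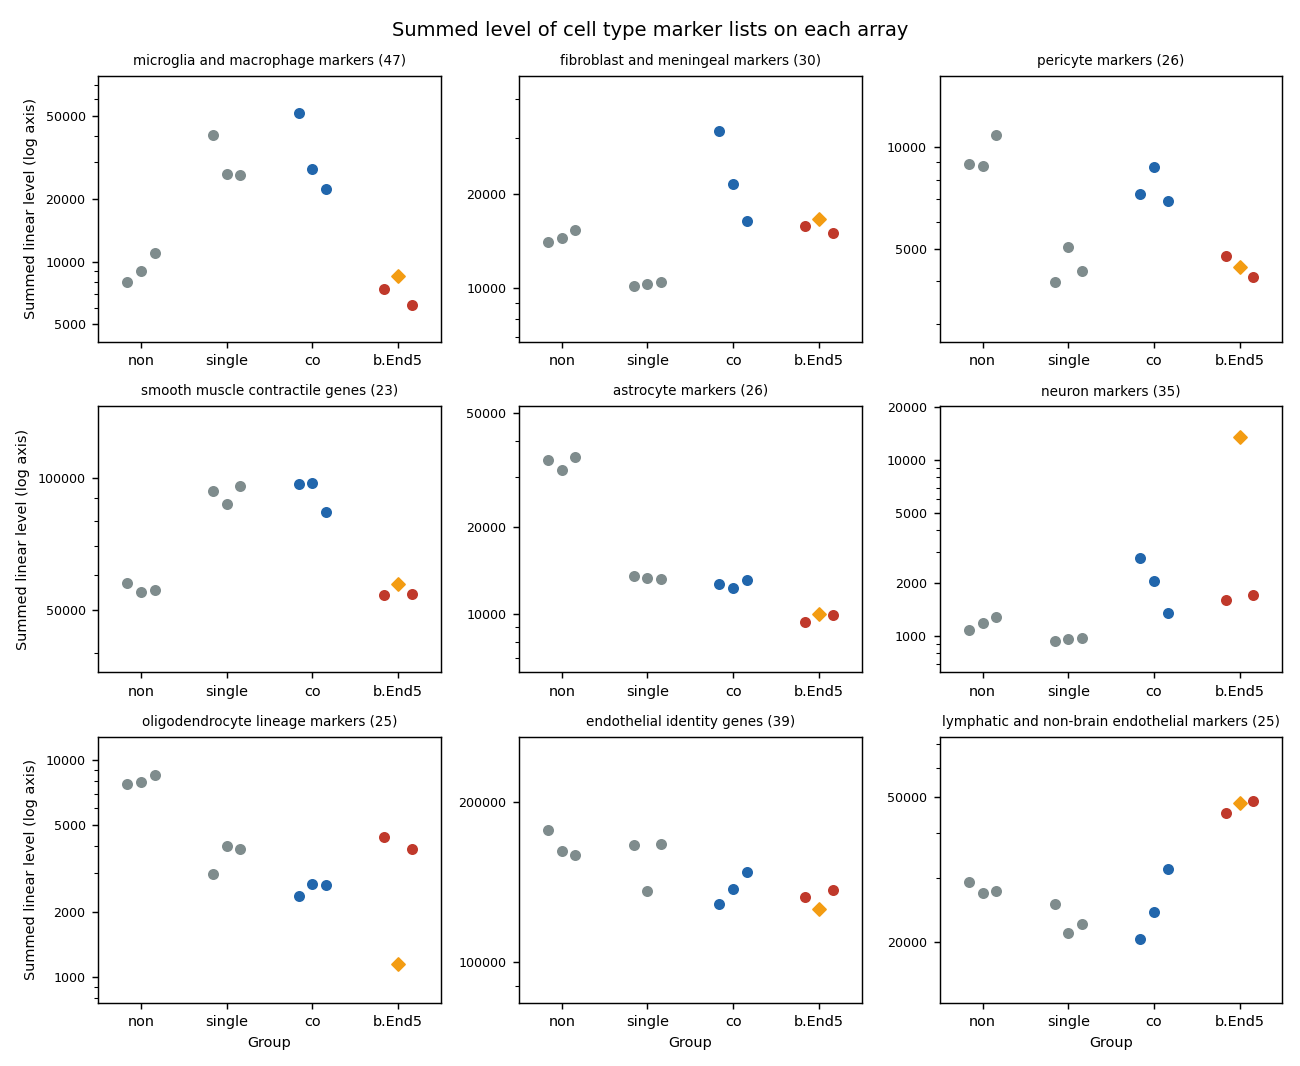
Summed linear level (log axis) of each cell type list on the non-cultured, single-cultured (grey), co-cultured (blue) and b.End5 (red, replicate 2 as an orange diamond) arrays, with a point for each array and the number of measured members in each panel title. The microglia sums lie at 22187 to 51852 in co-cultured cells and at 6192 to 8540 in b.End5, whereas the endothelial sums of the groups overlap.

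Of 39 endothelial identity genes, 5 were higher in the line, 11 were lower and 23 did not pass. Their summed level, to which the most abundant genes contribute most, was 128204 to 147540 on the co-cultured arrays and 125804 to 136342 on the b.End5 arrays, which overlap. Pecam1, the adhesion molecule CD31, had levels of 12.38, 12.53 and 12.51 in the co-cultured cells and 12.44, 11.94 and 12.50 in b.End5; the difference of -0.18 did not pass (SE 0.20, adjusted p = 0.521). Cdh5, VE-cadherin, differed by -0.47 (SE 0.14), and Kdr, the main VEGF receptor, by 0.12 (SE 0.21), both short of the 2-fold minimum.

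Slco2a1, a prostaglandin transporter, showed the largest rise of the identity genes, with co-cultured levels of 6.72, 5.76 and 5.95 and b.End5 levels of 10.78, 11.50 and 11, a difference of 4.95 (SE 0.24, adjusted p = 4.68e-08). Flt4, the VEGF-C receptor of lymphatic and venous endothelium, was higher by 1.36 (SE 0.16, adjusted p = 7.04e-05). Vwf, the von Willebrand factor stored in endothelial granules, had log2 levels of 13.48, 13.18 and 13.25 on the co-cultured arrays and 8.07, 5.51 and 8.68 on the b.End5 arrays. It was lower at -5.88 (SE 0.59, adjusted p = 1.63e-05), at -4.93 without b.End5 replicate 2 and -6.51 without b.End5 replicate 3. Sox17, an arterial transcription factor, had levels of 9.88, 10.01 and 9.88 in the co-cultured cells and 6.03, 3.98 and 5.46 in b.End5 and was lower at -4.77 (SE 0.38, adjusted p = 2.44e-06), at -4.18 without b.End5 replicate 2. Nostrin, which traffics nitric oxide synthase, was lower at -3.02 (SE 0.40, adjusted p = 0.000159), and Eng, a TGF-beta co-receptor of endothelium, at -2.03 (SE 0.15, adjusted p = 1.31e-06). Nos3, endothelial nitric oxide synthase, passed as higher at 1.24, but its difference was 0.94 without b.End5 replicate 2, under the 2-fold minimum.

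Of 32 measured tight junction and junctional adhesion genes, 2 were higher and 12 lower. Cldn5, the dominant claudin of brain endothelium, had co-cultured levels of 12.48, 12.80 and 13.01 and b.End5 levels of 13.23, 13.35 and 13.08. Its difference of 0.46 (SE 0.15) was under 2-fold, and all b.End5 arrays lay above all co-cultured arrays. Tjp1, the scaffold ZO-1, differed by -0.19 (SE 0.11) and did not pass. Ocln, the membrane protein occludin, had log2 levels of 11.15, 11.07 and 11.01 on the co-cultured arrays and 6.79, 4.31 and 7.06 on the b.End5 arrays; it was lower at -5.02 (SE 0.54, adjusted p = 2.95e-05), and -4.15 without b.End5 replicate 2. Marveld2, tricellulin of the contacts where 3 cells meet, had levels of 8.82, 9.14 and 9.33 in the co-cultured cells and 4.73, 5.27 and 5.04 in b.End5, a difference of -4.08 (SE 0.17, adjusted p = 1.64e-08). Igsf5, the junctional adhesion molecule JAM4, was at the no-target level in the line and at least 13.9-fold lower (adjusted p = 9.91e-08). Jam3, another junctional adhesion molecule, was higher by 1.66 (SE 0.21, adjusted p = 0.00011). Amotl1 and Amotl2, angiomotin-like junction proteins, went opposite ways, at 1.11 (SE 0.11) and -3.32 (SE 0.24).

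Barrier transporters were lower more often than higher. Of 42 measured barrier transporters and receptors, 21 were lower and 2 higher, with a median of -0.99. Slco1a4, an organic anion transporter of brain capillaries, had co-cultured levels of 11.80, 11.15 and 9.77 and b.End5 levels of 3.39, 3.39 and 3.36. It was at the no-target level on every b.End5 array and at least 98.6-fold lower (adjusted p = 5.85e-08). Slco1c1, the thyroxine transporter, had log2 levels of 10.56, 10.16 and 10.27 on the co-cultured arrays and 3.96, 4.34 and 4.46 on the b.End5 arrays, lower at -6.08 (SE 0.15, adjusted p = 7.76e-10). Slco2b1, another organic anion transporter, had levels of 11.87, 11.48 and 11.48 in the co-cultured cells and 5.35, 5.01 and 4.86 in b.End5, lower at -6.54 (SE 0.23, adjusted p = 3.99e-09). For these 3 genes every b.End5 array lay far below every co-cultured array. The mean levels in non-cultured cells were 13.75 for Slco1a4, 13.80 for Slco1c1 and 12.51 for Slco2b1.

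Other carriers fell by smaller amounts. Slc2a1, the glucose transporter GLUT1, had co-cultured levels of 13.57, 13.49 and 13.42 and b.End5 levels of 11.57, 12.33 and 11.55, a difference of -1.68 (SE 0.18, adjusted p = 3.26e-05). Mfsd2a, the transporter of lysophosphatidylcholine carrying docosahexaenoic acid, had log2 levels of 7.35, 7.44 and 7.60 on the co-cultured arrays and 4.88, 5.56 and 6.04 on the b.End5 arrays; it was lower at -1.98 (SE 0.27, adjusted p = 0.000185), and its non-cultured mean was 12.80. Slc22a8, an organic anion exchanger, was lower at -1.29 (SE 0.16, adjusted p = 7.6e-05), and Tfrc, the transferrin receptor, at -1.19 (SE 0.16, adjusted p = 0.000155). Ttr, a thyroxine carrier protein made mostly by choroid plexus, was at least 30.9-fold lower (adjusted p = 7.5e-05). The receptors for insulin and insulin-like growth factor moved in opposite directions. Insr, the insulin receptor, had levels of 9.22, 9.01 and 9.78 in the co-cultured cells and 11.93, 11.42 and 12.44 in b.End5 and was higher by 2.59 (SE 0.35, adjusted p = 0.000171), whereas Igf1r, the type 1 IGF receptor, had co-cultured levels of 9.89, 9.56 and 9.56 and b.End5 levels of 5.22, 4.33 and 5.47 and was lower at -4.66 (SE 0.26, adjusted p = 1.41e-07). Slc29a1, an equilibrative nucleoside transporter, was the other higher member, by 1.45 (SE 0.28, adjusted p = 0.00231).

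Amino acid transporters, the subject named in the title of the series, were called less widely than the barrier transporters, and more often as lower than as higher. Of 41 measured, 10 (24.4%) were lower, 2 (4.88%) higher and 29 did not pass, with a median of -0.20. Over all genes 7.96% were lower and 5.10% higher. Slc1a1, the glutamate and aspartate transporter EAAC1, had log2 levels of 9.83, 10.31 and 10.40 on the co-cultured arrays and 3.61, 4.19 and 3.17 on the b.End5 arrays. It was at the no-target level in b.End5 and at least 59.6-fold lower (adjusted p = 3.9e-09). Slc7a5, the light chain LAT1 that carries large neutral amino acids and L-DOPA, had levels of 10.01, 10.51 and 10.16 in the co-cultured cells and 7.48, 9.57 and 7.40 in b.End5; the difference was -2.07 (SE 0.45, adjusted p = 0.00488). Its b.End5 replicate 2 lay well above the other b.End5 arrays, and without it the difference was -2.78. Slc3a2, the heavy chain that pairs with LAT1, differed by -0.36 (SE 0.13, adjusted p = 0.0527) and did not pass. The mean level of Slc7a5 in non-cultured cells was 12.59.

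Light chains of the y+L exchange system went in opposite directions. Slc7a7, the y+LAT1 chain, had co-cultured levels of 7.71, 7.15 and 7.77 and b.End5 levels of 9.29, 9.77 and 9.03 and was higher by 1.82 (SE 0.21, adjusted p = 4.7e-05). Slc7a6, the y+LAT2 chain, had log2 levels of 8.59, 8.23 and 8.52 on the co-cultured arrays and 6.61, 5.27 and 6.51 on the b.End5 arrays and was lower at -2.32 (SE 0.29, adjusted p = 9.58e-05). Of 8 genes measured in the Slc38 family, which includes glutamine carriers, 4 were lower and 4 did not pass. Slc38a5 had levels of 6.83, 6.63 and 6.81 in the co-cultured cells and 2.85, 3.10 and 3.34 in b.End5, was at the no-target level in b.End5 and was at least 5.56-fold lower (adjusted p = 8.19e-08), against a non-cultured mean of 11.59. Slc38a1 was lower at -1.72 (SE 0.16, adjusted p = 1.04e-05), Slc38a3 at -1.58 (SE 0.22, adjusted p = 0.000206), and Slc38a4 was at least 2.95-fold lower (adjusted p = 8.84e-05). Of the cationic transporters, Slc7a1 had co-cultured levels of 8.83, 9.19 and 9.16 and b.End5 levels of 8.0, 8.84 and 7.93, and its difference of -0.81 did not pass, while without b.End5 replicate 2 it was -1.10 and passed. The other higher member, the cationic transporter Slc7a3, had a difference of 1.46 that no longer passed without co-cultured replicate 2 (1.12), co-cultured replicate 3 (1.44) or b.End5 replicate 2 (0.95), or with the 6 arrays fitted alone. Slc7a11, the cystine and glutamate exchanger, differed by -0.88 (SE 0.31, adjusted p = 0.0508) and passed, at -1.11, without b.End5 replicate 1. Without b.End5 replicate 2 the list had 12 lower members and 1 higher.

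Efflux pumps did not move together. Of 28 ABC transporters 6 were lower and 1 higher, with a median of -0.12. Abcb1a, the main P-glycoprotein of mouse brain capillaries, had log2 levels of 10.57, 10.60 and 10.38 on the co-cultured arrays and 7.48, 5.39 and 7.35 on the b.End5 arrays; the difference was -3.78 (SE 0.42, adjusted p = 3.66e-05), and -3.10 without b.End5 replicate 2. Abcg2, the breast cancer resistance protein, differed by 0.65 (SE 0.11), under 2-fold. Abcb1b, the other P-glycoprotein gene, was lower at -1.73, but -1.03 without b.End5 replicate 2, and it no longer passed without co-cultured replicate 1 (-1.62) or 2 (-1.60) or with the 6 arrays fitted alone. Abca5, a lysosomal lipid transporter, was lower at -5.21 (SE 0.30, adjusted p = 2.13e-07), and Abcc5, a pump of cyclic nucleotides, was higher by 1.24 (SE 0.16, adjusted p = 0.000153). The closely related Abcb1a and Abcb1b may share probe signal.

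**Figure D3:**
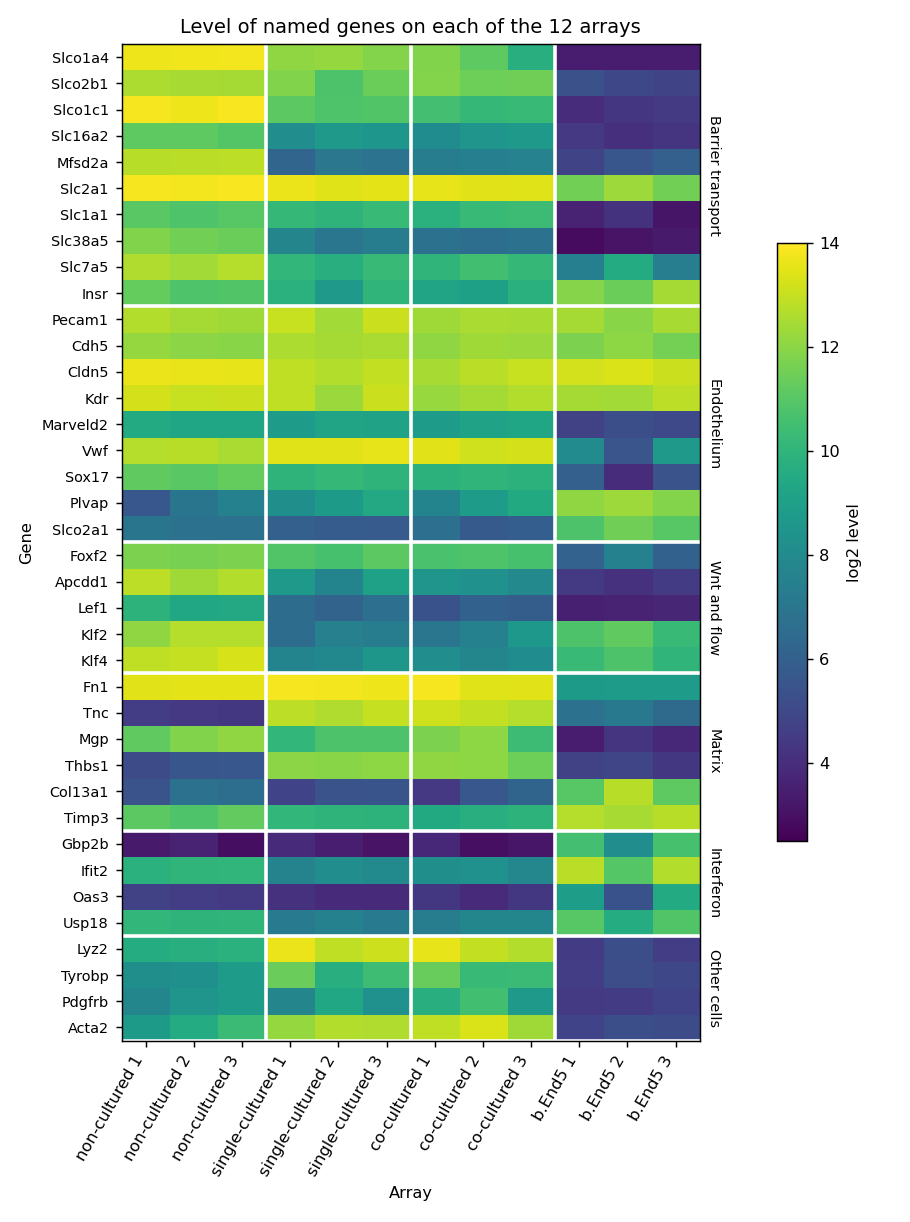
Log2 level of named genes (rows, grouped by role) on each of the 12 arrays (columns, grouped by source), on a colour scale from dark (low) to yellow (high). Slco1a4, Slco1c1 and Slc38a5 are lowest on the b.End5 arrays, Pecam1 and Cldn5 are high on every array, and Plvap, Gbp2b and Ifit2 are higher on the b.End5 than on the co-cultured arrays.

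Vesicular transport and fenestral genes included a large rise. Plvap, the protein of fenestral and caveolar diaphragms that mature brain endothelium lacks, had levels of 7.69, 8.84 and 9.49 in the co-cultured cells and 12.07, 12.32 and 11.88 in b.End5, a difference of 3.42 (SE 0.52, adjusted p = 0.000432). Every b.End5 array lay above every co-cultured array. It was the 1 higher gene of 27 of caveolae and transcytosis, of which 5 were lower. Cav1, the main caveolar coat protein, differed by -0.78 (SE 0.13), under 2-fold. Gpihbp1, which holds lipoprotein lipase on capillaries, was lower at -5.42, and -6.14 without co-cultured replicate 1.

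The lymphatic and non-brain endothelial list, to which Plvap also belongs, had 7 higher and 6 lower members of 25. Its summed level was 45270 to 48947 in b.End5 and 20438 to 31782 in the co-cultured cells, without overlap. The most abundant genes contribute most to such a sum, and Igfbp5, described above, and Plvap are among its members. The median difference of the list was 0.30, and 0.12 without b.End5 replicate 2, against 0.10 over all genes. Nr2f2, the COUP-TFII factor of venous and lymphatic identity, was higher by 2.40 (SE 0.25, adjusted p = 2.14e-05). Prox1, the transcription factor of lymphatic endothelium, had co-cultured levels of 2.92, 2.78 and 2.88 and b.End5 levels of 5.96, 3.36 and 6.30. The co-cultured level was at the no-target level, and b.End5 was at least 2.18-fold higher (adjusted p = 0.00845). On b.End5 replicate 2 Prox1 was far below replicates 1 and 3 and under the no-target level of that array, 4.40. Without replicate 2, b.End5 was at least 4.15-fold higher. Prox1 no longer passed with the 6 arrays fitted alone (adjusted p = 0.0605). Pdpn, podoplanin of lymphatic endothelium and fibroblasts, was lower at -5.44 (SE 0.40, adjusted p = 1.46e-06), and Tcf15, which acts with Meox2 in capillary endothelium of heart and muscle, at -3.40 (SE 0.32, adjusted p = 1.02e-05).

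Wnt pathway genes and barrier transcription factors were lower or did not pass. Of 42 measured, 12 were lower and none higher, both with and without b.End5 replicate 2; by limma's unadjusted p under 0.05, 7 were higher and 17 lower. Foxf2, a forkhead factor of brain vessels and pericytes, had log2 levels of 10.71, 10.85 and 10.66 on the co-cultured arrays and 6.12, 7.55 and 6.06 on the b.End5 arrays, a difference of -4.16 (SE 0.32, adjusted p = 1.75e-06). Apcdd1, a membrane inhibitor induced by Wnt signals, had levels of 8.51, 8.33 and 7.92 in the co-cultured cells and 4.44, 4.12 and 4.52 in b.End5 and was lower at -3.89 (SE 0.30, adjusted p = 2.2e-06). Lef1, the DNA-binding partner of beta-catenin, was at least 2.84-fold lower (adjusted p = 1.07e-05), and Foxq1, another forkhead factor of brain endothelium, was lower at -2.61 (SE 0.20, adjusted p = 1.87e-06). Axin2, the common Wnt target, differed by 0.46 (SE 0.23) and did not pass. The non-cultured means were 12.62 for Apcdd1 and 11.44 for Axin2. The ligand Wnt5a was at least 20.3-fold lower (adjusted p = 4.14e-07).

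Of the 36 flow-responsive and immediate early genes, 3 were higher and 7 lower, with a median of -0.36. Klf2, the Kruppel-like factor induced by laminar flow, had co-cultured levels of 7.03, 7.54 and 8.63 and b.End5 levels of 10.81, 11.20 and 10.30, a difference of 3.04 (SE 0.39, adjusted p = 0.000127). Klf4, a related factor, had log2 levels of 8.15, 7.76 and 8.08 on the co-cultured arrays and 10.24, 10.79 and 10 on the b.End5 arrays, a difference of 2.34 (SE 0.25, adjusted p = 2.77e-05). The groups did not overlap for either gene, and the non-cultured means were 12.51 for Klf2 and 13.05 for Klf4. The lower members of the list included Ccn1 and Ccn2, matricellular targets of YAP, at -5.83 (SE 0.17) and -5.08 (SE 0.18), and Ier3, an early survival gene, at -3.35 (SE 0.26). Thbd, the thrombin receptor thrombomodulin, was higher by 1.30 (SE 0.18, adjusted p = 0.000184).

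Genes of sprouting and zonation were more often lower than higher. Of 46 angiogenesis and tip cell genes 17 were lower and 8 higher; of 46 arteriovenous zonation and Notch genes 24 were lower and 8 higher, with a median of -1.23. Angpt2, the destabilising ligand of Tie2, had levels of 13.14, 13.14 and 13.16 in the co-cultured cells and 5.84, 6.22 and 6.54 in b.End5, a difference of -6.95 (SE 0.16, adjusted p = 7.76e-10). Edn1, the vasoconstrictor endothelin, had co-cultured levels of 13.03, 12.53 and 12.10 and b.End5 levels of 5.60, 6.06 and 5.04, a difference of -6.99 (SE 0.28, adjusted p = 1.17e-08). Pdgfb, by which endothelium recruits pericytes, had log2 levels of 10.27, 10.15 and 10.48 on the co-cultured arrays and 4.03, 4.38 and 4.59 on the b.End5 arrays, a difference of -5.96 (SE 0.26, adjusted p = 2.04e-08). These ligands were high on every co-cultured array and low on every b.End5 array. Adm, the peptide adrenomedullin, was lower at -6.57 (SE 0.18, adjusted p = 7.76e-10), and Cxcl12, a chemokine of arterial cells, at -4.66 (SE 0.17, adjusted p = 3.99e-09). Its receptor Cxcr4 was lower at -5.60, and -4.82 without b.End5 replicate 2 and -6.25 without b.End5 replicate 1.

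Other members of these lists were higher. Dll1, a Delta-type Notch ligand, had levels of 5.87, 6.72 and 7.34 in the co-cultured cells and 12.22, 12.91 and 12.39 in b.End5, a difference of 5.87 (SE 0.32, adjusted p = 1.35e-07). Calcrl, the receptor of adrenomedullin, was higher by 2.53 (SE 0.18, adjusted p = 1.1e-06), and Vegfc, the lymphangiogenic growth factor, by 2.25 (SE 0.30, adjusted p = 0.000148). Of 51 guidance genes of the ephrin, semaphorin, Slit and netrin families, 10 were higher and 7 lower. Sema3d, a secreted semaphorin, had co-cultured levels of 2.97, 3.11 and 3.49 and b.End5 levels of 8.85, 9.03 and 9.04. It was at the no-target level in the co-cultured cells, and b.End5 was at least 29.7-fold higher (adjusted p = 7.76e-10). Ephb1, an ephrin receptor, had log2 levels of 6.76, 7.08 and 7.0 on the co-cultured arrays and 11.58, 11.47 and 11.50 on the b.End5 arrays, a difference of 4.57 (SE 0.26, adjusted p = 1.48e-07), and Ntn1, netrin 1, had levels of 5.55, 6.15 and 5.65 in the co-cultured cells and 10.44, 10.24 and 10.36 in b.End5, a difference of 4.56 (SE 0.22, adjusted p = 4.59e-08). Robo1, a Slit receptor, had b.End5 levels of 8.74, 5.70 and 8.86; the difference was 3.43, and 4.46 without replicate 2.

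The extracellular matrix differed in composition. Of 55 non-collagen matrix genes 22 were lower and 4 higher, and of 36 collagen genes 11 were lower and 4 higher. Fn1, fibronectin, had co-cultured levels of 13.84, 13.45 and 13.50 and b.End5 levels of 8.76, 8.86 and 8.83, a difference of -4.78 (SE 0.12, adjusted p = 7.76e-10). Tnc, the glycoprotein tenascin C, had log2 levels of 13.17, 12.92 and 12.72 on the co-cultured arrays and 6.81, 7.13 and 6.49 on the b.End5 arrays, a difference of -6.13 (SE 0.18, adjusted p = 9.52e-10). Thbs1, the angiogenesis inhibitor thrombospondin 1, had levels of 12.11, 12.04 and 11.44 in the co-cultured cells and 4.75, 4.90 and 4.39 in b.End5, a difference of -7.19 (SE 0.20, adjusted p = 7.76e-10). All 3 were high on every co-cultured array; in non-cultured cells the means were 13.51 for Fn1, 4.44 for Tnc and 5.46 for Thbs1. Mgp, the calcification inhibitor matrix Gla protein, was at the no-target level in the line and at least 137-fold lower (adjusted p = 1.15e-07). Ccn3, a matricellular protein, went the other way, with co-cultured levels of 6.19, 6.29 and 6.12 and b.End5 levels of 10.82, 11.40 and 10.63, a difference of 4.75 (SE 0.30, adjusted p = 4.43e-07).

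The fibrillar collagen genes Col1a2 and Col3a1 were lower at -6.37 and -6.37, and their size depended on the co-cultured arrays, with Col1a2 at -6.97 without co-cultured replicate 3 and Col3a1 at -5.75 without co-cultured replicate 1. Co-cultured replicate 1 was also the highest array in the summed level of fibroblast markers, at 31582 against 21407 and 16403, and in that of microglia markers. The higher collagens were of other kinds: Col13a1, described above, and Col23a1, another transmembrane collagen, at 4.57 (SE 0.19, adjusted p = 1.72e-08). Integrin alpha subunits split: Itga9, which binds tenascin C, was higher by 4.04 (SE 0.24, adjusted p = 2.57e-07), and Itga8, a receptor of RGD ligands, by 3.19 (SE 0.35, adjusted p = 3.72e-05). Itga1, a collagen receptor, was lower at -6.25 (SE 0.28, adjusted p = 2.61e-08), and Itga4, the VCAM1 receptor chain of leukocytes, at -4.44 (SE 0.16, adjusted p = 4.12e-09). The part of fibroblasts, pericytes and macrophages in the matrix differences was not tested.

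Matrix proteases and their inhibitors had 10 higher and 13 lower members of 39, the former 6 without co-cultured replicate 2. Timp3, the matrix-bound metalloproteinase inhibitor, had log2 levels of 9.51, 9.78 and 9.95 on the co-cultured arrays and 12.73, 12.50 and 12.77 on the b.End5 arrays, a difference of 2.92 (SE 0.15, adjusted p = 6.82e-08), and Timp2 was higher by 2.51 (SE 0.33, adjusted p = 0.000131). Adamts5, an aggrecanase, was higher by 3.35 (SE 0.40, adjusted p = 7.28e-05). Mmp12, macrophage elastase, was at the no-target level in b.End5 and at least 45.1-fold lower (adjusted p = 3.48e-07). No gene of 49 in the TGF-beta, activin and BMP list was higher by limma (5 at an unadjusted p under 0.05), and 16 were lower, while without b.End5 replicate 2 there were 2 higher and 18 lower. Tgfbi, a matrix protein induced by TGF-beta, was lower at -5.41 (SE 0.30, adjusted p = 1.43e-07), Bmp2, a ligand of the BMP branch, at -3.94 (SE 0.29, adjusted p = 1.45e-06), and the inhibitory Smad6 was at least 12.3-fold lower (adjusted p = 4.16e-06).

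Of the 44 gene lists, that of interferon response genes had the largest share of rises. Of 51 measured, 26 (51%) were higher and 5 (9.80%) lower, against 5.10% and 7.96% of all genes, and the median difference was 1.09. These genes encode sensors of viral RNA, enzymes that block viral replication and the factors that switch the response on. Ifit2, which binds viral RNA, had levels of 8.21, 8.31 and 7.82 in the co-cultured cells and 12.81, 10.98 and 12.65 in b.End5, a difference of 4.03 (SE 0.38, adjusted p = 1.04e-05), and 4.62 without b.End5 replicate 2. Usp18, which removes the ubiquitin-like ISG15 from proteins and dampens the receptor, had co-cultured levels of 7.33, 7.76 and 7.76 and b.End5 levels of 11, 9.63 and 10.86, a difference of 2.88 (SE 0.29, adjusted p = 1.87e-05). Oas3, an activator of RNase L, had log2 levels of 4.36, 3.94 and 4.35 on the co-cultured arrays and 8.90, 5.39 and 9.52 on the b.End5 arrays; the difference was 3.72 (SE 0.78, adjusted p = 0.0038), 5.0 without b.End5 replicate 2 and 2.93 without b.End5 replicate 3. Rsad2, the antiviral enzyme viperin, had levels of 6.91, 8.17 and 8.11 in the co-cultured cells and 10.39, 9.99 and 10.46 in b.End5, a difference of 2.55 (SE 0.28, adjusted p = 3.23e-05).

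The array labelled b.End5 replicate 2 was the lowest b.End5 array for 26 of the 26 higher interferon genes and lay above every co-cultured array for 23 of them. Over all genes it was the lowest b.End5 array for 35.2%. Without it, 32 interferon genes were higher and 7 lower, and the median was 1.59. The summed level of the list was 97546, 51325 and 94482 on b.End5 arrays 1, 2 and 3, and 46765 to 48369 on the co-cultured arrays. The same list summed to 44597 to 49351 in single-cultured and 78626 to 80963 in non-cultured cells. Ifi44, a cytoplasmic interferon-inducible protein, had b.End5 levels of 11.47, 7.92 and 11.32 and co-cultured levels of 7.17, 7.41 and 7.49. Its difference was 2.88 (SE 0.73, adjusted p = 0.0115), 4.04 without b.End5 replicate 2 and 2.27 without b.End5 replicate 1. With the 6 arrays fitted alone 18 interferon genes were higher and 4 lower, and Ifi44 was not among the calls (adjusted p = 0.0627). With a replicate block 13 were higher and 4 lower, and without b.End5 replicate 1 or 3, 20 were higher and 5 lower. Gbp3, a guanylate-binding protein of the list that did not pass (-0.08), had b.End5 levels of 11.41, 8.35 and 11.35.

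Of 9 interferon regulatory factors measured over all genes, 8 did not pass and Irf7, the amplifier of type I interferon, was higher by 2.19 (SE 0.52, 3.01 without b.End5 replicate 2, and lost with the 6 arrays fitted alone). Stat2, a subunit of the complex that binds interferon-responsive promoters, was higher by 1.71 (SE 0.41, and 2.21 without b.End5 replicate 2). Dhx58, a helicase that regulates RNA sensing, was higher by 2.86 (SE 0.25). The receptor chains Ifnar2 and Ifngr2 were lower, at -1.22 (SE 0.12, adjusted p = 1.38e-05) and -1.25 (SE 0.16, adjusted p = 9.57e-05). Ifi30, a lysosomal thiol reductase of antigen-presenting cells, was lower at -2.69 (SE 0.29, adjusted p = 3.07e-05). The remaining lower members of the list were Ifitm1, also among the pericyte markers, at -4.86, and Bst2 at -1.08. The Ifitm1 difference was the lowest of the list, and the promoter of Bst2 held the response element core described below. Outside the list, Gbp2b, a guanylate-binding protein, had co-cultured levels of 3.78, 2.97 and 3.21 and b.End5 levels of 10.54, 8.14 and 10.65. The co-cultured cells were at the no-target level, and b.End5 was at least 51.8-fold higher (adjusted p = 4.16e-06), and at least 91.4-fold higher without b.End5 replicate 2. Ifi202b, a cytosolic DNA-binding protein of the p200 family, had log2 levels of 3.35, 3.41 and 3.41 on the co-cultured arrays and 10.80, 9.60 and 10.36 on the b.End5 arrays and was likewise at least 72.1-fold higher (adjusted p = 1.17e-08). Ifi27l2a, a small interferon-inducible membrane protein, had levels of 5.97, 6.01 and 6.51 in the co-cultured cells and 12.59, 12.0 and 12.13 in b.End5, a difference of 6.08 (SE 0.19, adjusted p = 1.44e-09).

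**Figure D4:**
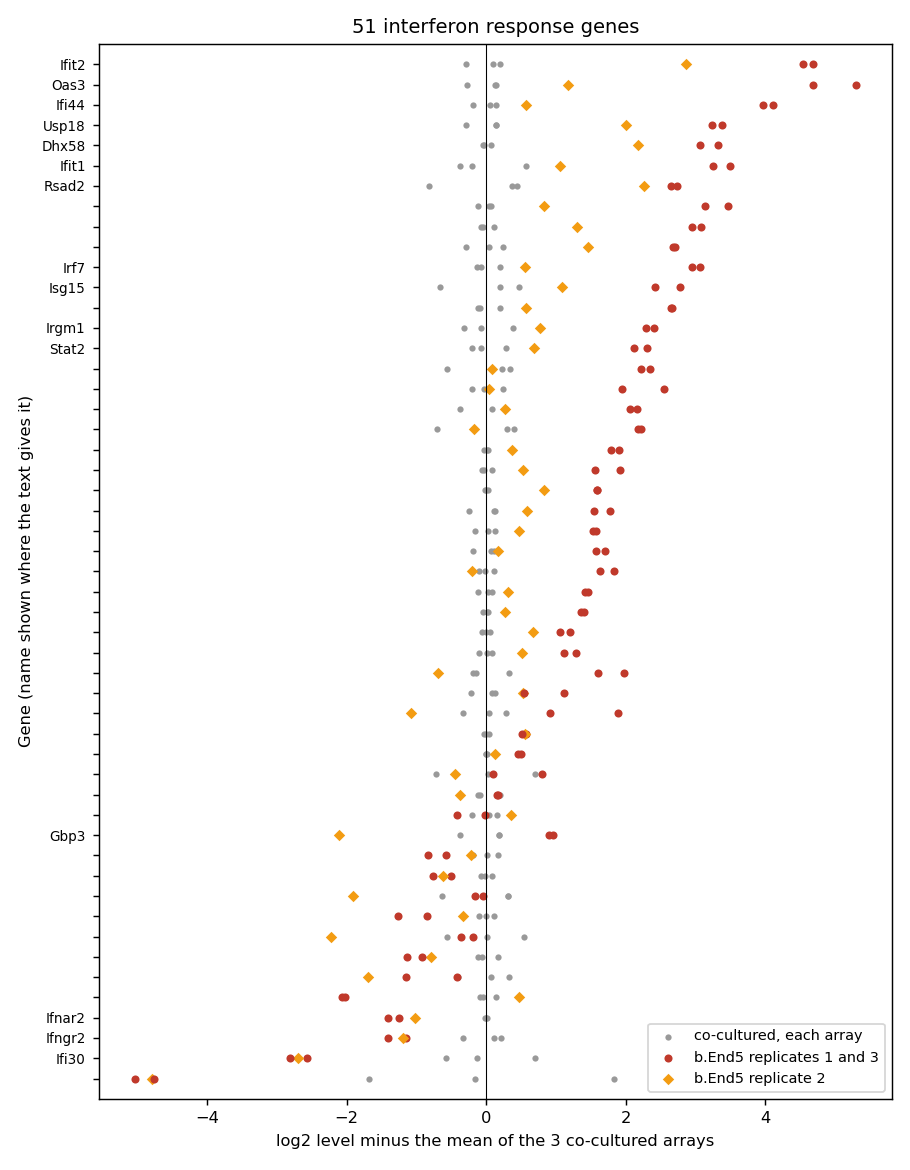
Log2 level of each of the 51 interferon response genes minus its mean over the 3 co-cultured arrays (names for most of those given in the text), with co-cultured arrays in grey, b.End5 replicates 1 and 3 in red and replicate 2 as orange diamonds. Replicate 2 lies below b.End5 replicates 1 and 3 for all 26 genes called higher, and above all co-cultured arrays for 23 of them.

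As 26 of these genes were higher, the promoters of the list were searched for the interferon-stimulated response element core, GAAANNGAAA on either strand (TTTCNNTTTC on the other), where overlapping matches each count. RefSeq promoters of 250 bases before the gene start (GRCm38.p6) were matched for 38 of the 51 genes. A gene was counted where any of its promoters held the core. This was so for 13 of the 38 (34.2%), against 383 of the 12037 genes compared here that had a promoter (3.18%). The share was 7 of 16 (43.8%) for the higher interferon genes and 6 of 22 (27.3%) for the others. Over the whole comparison, 38 of 584 higher genes with a promoter (6.51%) and 32 of 931 lower genes (3.44%) held it. The higher genes include the higher interferon genes. A match is a description of the letters and not evidence of binding. The promoters of 5 genes that were higher and of Gbp3, which was not, are printed 5′ to 3′ on the strand of the gene with the core in capitals, to show where the matches lie.
Isg15, chr4:156200819-156201068, minus strand: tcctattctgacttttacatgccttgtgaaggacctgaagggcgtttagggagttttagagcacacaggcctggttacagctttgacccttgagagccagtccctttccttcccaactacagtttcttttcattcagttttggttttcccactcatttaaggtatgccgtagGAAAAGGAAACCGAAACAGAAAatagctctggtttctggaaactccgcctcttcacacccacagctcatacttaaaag
Ifit1, chr19:34640639-34640888, plus strand: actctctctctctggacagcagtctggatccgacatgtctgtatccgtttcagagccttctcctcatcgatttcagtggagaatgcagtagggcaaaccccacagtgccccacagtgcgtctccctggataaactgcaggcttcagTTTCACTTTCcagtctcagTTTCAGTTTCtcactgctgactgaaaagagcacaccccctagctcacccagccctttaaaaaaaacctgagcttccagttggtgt
Rsad2, chr12:26456453-26456702, minus strand: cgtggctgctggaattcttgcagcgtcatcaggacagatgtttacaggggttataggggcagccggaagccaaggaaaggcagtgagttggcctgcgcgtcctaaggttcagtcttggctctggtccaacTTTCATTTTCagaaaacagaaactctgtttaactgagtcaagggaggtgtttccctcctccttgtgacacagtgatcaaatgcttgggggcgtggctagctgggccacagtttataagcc
Oas3, chr5:120777660-120777909, minus strand: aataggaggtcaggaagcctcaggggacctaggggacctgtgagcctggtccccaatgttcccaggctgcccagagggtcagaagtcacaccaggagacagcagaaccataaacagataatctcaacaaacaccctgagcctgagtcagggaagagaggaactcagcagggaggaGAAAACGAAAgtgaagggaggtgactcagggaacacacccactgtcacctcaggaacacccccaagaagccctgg
Irgm1, chr11:48871421-48871670, minus strand: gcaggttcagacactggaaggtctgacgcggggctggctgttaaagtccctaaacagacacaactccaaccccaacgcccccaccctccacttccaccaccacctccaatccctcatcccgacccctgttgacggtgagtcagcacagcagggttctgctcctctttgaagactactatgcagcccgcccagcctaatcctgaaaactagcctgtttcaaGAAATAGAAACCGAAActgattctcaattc
Gbp3, chr3:142559794-142560043, plus strand: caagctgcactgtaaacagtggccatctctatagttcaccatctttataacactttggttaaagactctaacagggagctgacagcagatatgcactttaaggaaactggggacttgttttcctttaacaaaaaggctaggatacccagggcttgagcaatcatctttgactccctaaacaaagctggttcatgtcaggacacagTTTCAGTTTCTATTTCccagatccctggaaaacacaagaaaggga
The Isg15 promoter held overlapping cores beginning 78, 72 and 66 bases before the gene start, and that of Ifit1 held separate cores at 104 and 85. The core lay 120 bases before the start in Rsad2, 75 in Oas3, 30 and 24 in Irgm1, and 45 and 39 in Gbp3. Isg15, a ubiquitin-like modifier, had co-cultured levels of 7.61, 8.73 and 8.46 and b.End5 levels of 11.04, 9.35 and 10.70, a difference of 2.10 (SE 0.42, adjusted p = 0.00313). Ifit1, which binds uncapped viral RNA, had log2 levels of 8.56, 9.51 and 8.73 on the co-cultured arrays and 12.19, 9.99 and 12.44 on the b.End5 arrays, a difference of 2.61 (SE 0.51, adjusted p = 0.00247), and 3.38 without b.End5 replicate 2. Irgm1, an immunity-related GTPase, had levels of 7.64, 8.34 and 7.89 in the co-cultured cells and 10.36, 8.74 and 10.25 in b.End5, a difference of 1.83 (SE 0.35, adjusted p = 0.00211). In each of these 3 genes b.End5 replicate 2 lay above the co-cultured arrays but nearer to them than to the other b.End5 arrays. Isg15, Ifit1, Rsad2, Irgm1 and Gbp3 were chosen for printing after their values were seen.

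Antigen presentation genes were called at about the share of all genes. Of 31 MHC and antigen processing genes 2 were higher and 2 lower, 12.9% called against 13.1% of all genes. Without b.End5 replicate 2, 6 were higher and 2 lower. H2-T24, a nonclassical class I gene, had co-cultured levels of 8.43, 7.49 and 7.85 and b.End5 levels of 12.0, 11.76 and 12.03, a difference of 4.0 (SE 0.21, adjusted p = 9.65e-08), and H2-T23, the Qa-1 gene recognised by natural killer cells, was higher by 2.04 (SE 0.16, adjusted p = 2.01e-06). Class I genes resemble each other closely and may share probe signal. B2m, the class I light chain, differed by 0.27 (SE 0.13), and H2-K1 by 0.21 (SE 0.29); neither passed. The lower members belong to class II presentation, Cd74, its invariant chain, at -1.68 (SE 0.24, adjusted p = 0.000257), and H2-Aa, which was at least 2.75-fold lower (adjusted p = 0.000445). Both are also expressed by macrophages, whose markers were lower in b.End5, as given above; their part was not tested.

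Inflammatory mediators and adhesion molecules were more often lower than higher. Of 49 chemokines and cytokines 17 were lower and 2 higher, of 26 leukocyte adhesion molecules 8 lower and 2 higher, and of 43 NF-kB feedback genes 10 lower and 4 higher. Icam1, a ligand of leukocyte integrins, differed by -0.03 (SE 0.28), and the selectins Sele and Selp by 0.28 (SE 0.32) and -0.88 (SE 0.89); none of these passed. Vcam1, the ligand of integrin alpha-4, had log2 levels of 10.48, 10.61 and 9.85 on the co-cultured arrays and 7.39, 5.18 and 7.58 on the b.End5 arrays; it was lower at -3.60 (SE 0.49, adjusted p = 0.000189), and -2.83 without b.End5 replicate 2. Ackr1, the chemokine-binding receptor of venules, was lower at -3.83, with co-cultured levels of 11.43, 9.95 and 7.36 that made the size depend on single arrays (-2.90 without replicate 1 and -4.94 without replicate 3). Cd40, a costimulatory receptor, was higher by 2.09 (SE 0.22, adjusted p = 2.13e-05).

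Among the chemokines, Spp1, the secreted protein osteopontin, was lower at -6.18 (SE 0.46, adjusted p = 1.46e-06), and Ccl3, a chemokine of macrophages, was at the no-target level in the line and at least 17.4-fold lower (adjusted p = 8.09e-07). Cxcl10, an interferon-inducible chemokine, had levels of 6.32, 6.55 and 6.25 in the co-cultured cells and 10, 6.69 and 10.14 in b.End5; it was higher by 2.57 (SE 0.70, adjusted p = 0.0163), a call lost without b.End5 replicate 1 (2.04) or 3 (1.97) or with the 6 arrays fitted alone, while the difference was 3.69 without replicate 2. Complement and coagulation genes had 18 lower and 3 higher members of 37. C1qb, a chain of complement C1q made by macrophages, was lower at -5.78 (SE 0.59, adjusted p = 1.9e-05). Plat, tissue plasminogen activator, was lower at -2.51 (SE 0.34, adjusted p = 0.00017), F3, tissue factor, which starts coagulation, was at least 18.4-fold lower (adjusted p = 5.64e-06) with a fitted difference of -4.90 that was -5.50 without co-cultured replicate 3, and Cd55, which protects cells from complement, was higher by 2.88 (SE 0.33, adjusted p = 5.41e-05). The 30 lower microglia and macrophage markers move with these lists, and their part was not tested.

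None of 64 cell cycle genes was called by limma between the transformed line and the co-cultured primary cells. Their differences ran from -0.64 to 0.65 with a median of 0.07; 7 passed the adjusted p alone, and at an unadjusted p under 0.05, 10 were higher and 5 lower. The summed level of the list was 47990 to 53035 in b.End5 and 45428 to 50102 in the co-cultured cells. In the other primary cells it was lower, at 27232 to 30596 in single-cultured and 11977 to 12578 in non-cultured cells. Of 46 Cdk inhibitors and p53 targets 3 were higher and 8 lower. Fas, the death receptor, had co-cultured levels of 6.19, 5.16 and 4.97 and b.End5 levels of 10.35, 10.22 and 10.37, a difference of 4.87 (SE 0.38, adjusted p = 2.3e-06). Igfbp7, a secreted protein of tumour vessels, had log2 levels of 13.93, 13.97 and 13.91 on the co-cultured arrays and 9.14, 9.05 and 8.50 on the b.End5 arrays, a difference of -5.04 (SE 0.15, adjusted p = 9.73e-10), and Pmaip1, the BH3 protein Noxa, was at least 13.7-fold lower (adjusted p = 2.21e-09). Cdkn2a, the Ink4a and Arf locus often lost in established lines, differed by 0.90 (SE 0.21) and did not pass, and by 1.10, which passed, without b.End5 replicate 2, and by 1.02, which also passed, without co-cultured replicate 3. Of 36 genes listed as hallmarks of transformed lines 1 was higher, Yes1, a Src-family kinase that middle T antigen is known to bind, by 1.24 (SE 0.17, adjusted p = 0.000186), and 9 were lower.

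Growth factor and imprinted genes showed 6 higher and 9 lower members of 32. Igf2, the imprinted insulin-like growth factor, had levels of 6.58, 6.97 and 6.79 in the co-cultured cells and 9.69, 8.54 and 10.03 in b.End5, a difference of 2.64 (SE 0.36, adjusted p = 0.000196). Grb10, an imprinted adaptor that restrains insulin receptors, was higher by 1.86 (SE 0.34, adjusted p = 0.00166), and Ndn, the imprinted growth suppressor necdin, was lower at -4.53 (SE 0.35, adjusted p = 2e-06). Of 61 homeobox genes 22 were at the no-target level in both groups, 3 were higher and 7 lower. The share called was 16.4%, near the 13.1% of all genes. Meox1 and Prrx1, homeobox factors of mesoderm and mesenchyme, were lower at -5.48 (SE 0.26, adjusted p = 3.39e-08) and -3.85 (SE 0.38, adjusted p = 1.47e-05), and Lhx2, a LIM homeobox factor, was higher by 1.5 (SE 0.24, adjusted p = 0.000576).

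Metabolic lists differed in kind. None of 55 oxidative phosphorylation genes was called by limma (range -0.80 to 0.94, 4 past the adjusted p alone, 9 at an unadjusted p under 0.05). Of 34 glycolysis and hypoxia genes 10 were lower and none higher (4 higher at an unadjusted p under 0.05), with a median of -0.66. Ldhb, the lactate dehydrogenase subunit of oxidative tissues, had co-cultured levels of 10.06, 9.99 and 9.82 and b.End5 levels of 4.96, 5.02 and 5.32, a difference of -4.86 (SE 0.18, adjusted p = 4.82e-09). Pdk4, which shuts pyruvate out of the mitochondria, was lower at -4.53 (SE 0.32, adjusted p = 1.1e-06), and Slc16a3, a lactate exporter induced by hypoxia, at -3.37 (SE 0.35, adjusted p = 2.31e-05). Of 34 cholesterol and fatty acid synthesis genes 4 were higher and none lower, and 8 were higher without b.End5 replicate 2. By limma's unadjusted p under 0.05, 17 were higher and none lower, and 14 passed the adjusted p alone. The median difference of the list was 0.43. Nsdhl, an enzyme of late cholesterol synthesis, was higher by 1.40 (SE 0.12, adjusted p = 5.28e-06). Of 43 amino acid response and ATF4 targets 3 were higher and 3 lower; the higher counts ran from 1 without co-cultured replicate 3 to 5 without co-cultured replicate 1. Vldlr, a lipoprotein receptor, was the highest of them at 3.05 (SE 0.32, adjusted p = 2.71e-05).

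Drug-metabolising and antioxidant enzymes moved both ways, 10 of 70 higher and 14 lower. Nqo1, a quinone reductase controlled by Nrf2, had log2 levels of 7.81, 7.58 and 7.03 on the co-cultured arrays and 11.67, 12.30 and 11.65 on the b.End5 arrays, a difference of 4.40 (SE 0.23, adjusted p = 9.05e-08). Aox1, aldehyde oxidase, was higher by 3.41 (SE 0.18, adjusted p = 8.65e-08). Ddc, which decarboxylates L-DOPA and is known as an enzyme of the metabolic blood-brain barrier, had levels of 2.67, 2.40 and 2.80 in the co-cultured cells and 7.79, 8.27 and 7.88 in b.End5. The co-cultured cells were at the no-target level, b.End5 was at least 14.9-fold higher (adjusted p = 2.44e-09), and the non-cultured mean was 10.67. Gsta4, a glutathione transferase for lipid aldehydes, had co-cultured levels of 12.46, 12.06 and 11.61 and b.End5 levels of 7.23, 4.87 and 6.90; it was lower at -5.71 (SE 0.47, adjusted p = 3.48e-06), and -4.98 without b.End5 replicate 2. Cyp2d22, a cytochrome P450 of drug oxidation, was at least 22.2-fold lower (adjusted p = 2.96e-09), and Gpx7, a peroxidase of the endoplasmic reticulum, was lower at -5.09 (SE 0.14, adjusted p = 7.76e-10).

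**Figure D5:**
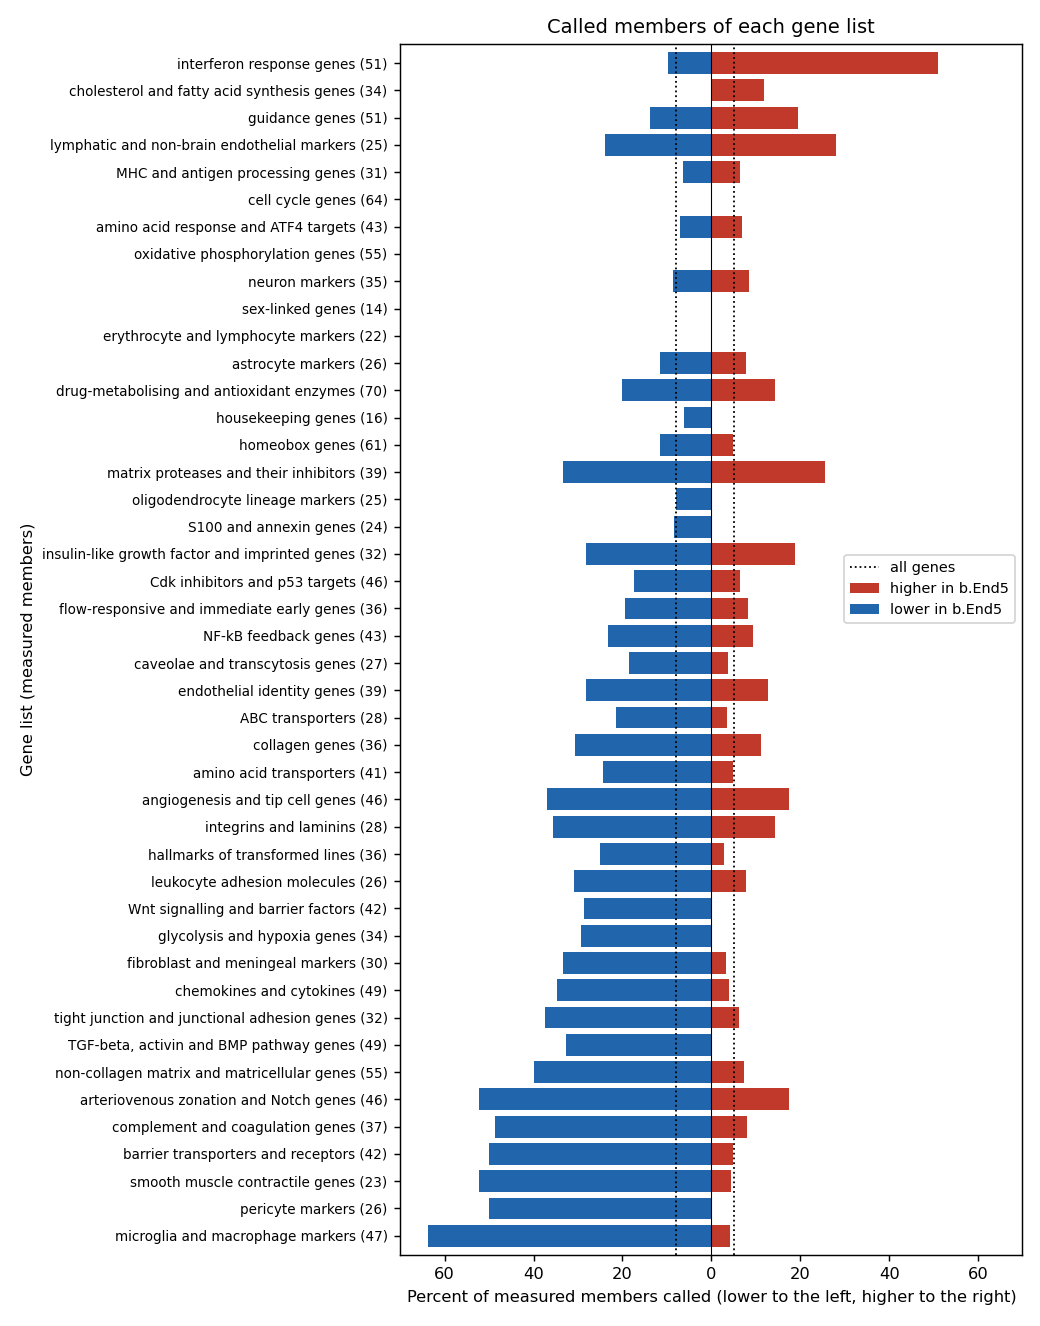
Percent of the measured members of each gene list (number in parentheses) called higher (red, to the right) or lower (blue, to the left) in b.End5, with dotted lines at the shares over all 15204 genes, 5.10% higher and 7.96% lower. The interferon list has 51% higher members, the microglia list the longest blue bar, and the cell cycle and oxidative phosphorylation lists have no bar.

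The levels in the other groups put these differences beside the fresh tissue. Of the genes higher in b.End5, the non-cultured mean lay nearer to b.End5 than to the co-cultured cells for 194 of 776, and of the lower genes for 524 of 1210 (43.3%), against 46.7% of all genes. The single-cultured mean lay nearer to b.End5 for 2.19% of the higher and 8.26% of the lower genes, against 30.6% of all genes. The called genes were selected by the gap between the same b.End5 and co-cultured means. Their shares therefore cannot be weighed against those of all genes, and nothing is concluded from the contrast. Lower genes with a non-cultured mean nearer to b.End5 than to the co-cultured cells included Tnc, Thbs1, Lgals3, a galectin of macrophages, and Gpihbp1, with non-cultured means of 4.44, 5.46, 5.04 and 5.44, against b.End5 means of 6.81, 4.68, 5.0 and 5.73. Genes whose level was highest in non-cultured cells and lowest in b.End5, with the co-cultured cells between, included Slco1c1, Slc38a5 and Apcdd1, at non-cultured means of 13.80, 11.59 and 12.62, co-cultured means of 10.33, 6.76 and 8.25, and b.End5 means of 4.25, 3.10 and 4.36.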

How the data were processed

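Per the labels, total RNA was DNase-digested on the column, reverse transcribed and amplified as cDNA, fragmented, biotin labelled and hybridised to 1 array for each sample. The deposited values are log2 levels of 21625 probe sets, made by the authors with RMA per the submitters' processing notes; the range and spread of the columns were those of log2 values, and all 12 columns were mapped to samples by their labels. RMA sets the distributions of the arrays equal, so a change in total RNA per cell would not be seen, and a number of 3 arrays for each group limits the precision.

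Of 21561 RefSeq probe sets, 16537 were given a symbol by their accession in the RefSeq gene table and 5024 had none there; each of 15204 genes was represented by its probe set of highest mean level, of which 987 had over 1 probe set and 88 shared all values with another gene. limma 3.58.1 (R 4.3.3) fitted 4 group means to all 12 arrays with eBayes, p-values were adjusted by Benjamini-Hochberg over all genes, and calls required an adjusted p under 0.05 with a log2 difference of 1 or more. Python 3.11.15 (pandas 2.3.3, matplotlib 3.10.9) served for tables and plots. Tested on simulated data, the fit recovered 93% of genes changed by 1.5 and 99% of genes changed by 3 log2 units, with 2 unchanged genes called. The simulation changed 200 genes and drew independent normal noise with no outlying array. It checks the fit and does not give the error rate of the real comparison.

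The text names called genes with the 25 largest rises and 25 largest falls without overlap, up to 4 called members in each direction of each of 44 gene lists (or, with no call, the 1 member that differed most) and a set of markers, 268 genes in all; some were left out. B2m, H2-K1, Irf7, Stat2, Dhx58, Bst2, Slc38a1, Cx3cr1, P2ry12 and the printed promoters other than that of Oas3 fall outside this rule and were chosen after their values were seen. The comparison, lists and named genes were chosen with earlier results of these data known. Alternatives were the 2 groups alone, other scalings, other summaries of probe sets, dim genes left out, array weights, a replicate block, other thresholds, and each array left out in turn.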

Additional observations from a re-analysis of the deposited data

Results flagged for a closer look

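Probe sets without a symbol are outside the comparison of named genes, and differences were measured there too. Fitted by limma over all 21561 RefSeq probe sets, 273 of the 5024 probe sets with no symbol were higher in b.End5 and 231 were lower, against 849 and 1313 of the 16537 with a symbol. They are given here because signal appeared in data that the comparison does not use; the genes behind these probe sets are not named here. Groups of 3 arrays are too small for a check on outlying arrays by gap and range.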

How the results depend on the processing

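The number of calls depended most on the minimum fold. With none, 2475 genes were higher and 2223 lower, and at 4-fold 220 and 596. With each array left out in turn, 704 to 877 genes were higher and 1167 to 1234 lower. The 2 groups fitted alone gave 676 higher and 1103 lower genes, 855 and 1182 without b.End5 replicate 2, an alternative chosen after seeing the data. The higher genes were 43.5% of the calls with arrays centred on their medians and 33.4% after cyclic loess, against 39.1%; array weights gave b.End5 replicate 2 a weight of 0.2296. No called gene named in the text changed direction in any setting run, with Ifitm1 and Bst2 left out of this check. Uncalled genes near 0 did: Icam1 was 0.04 with median centring, 0.03 with housekeeping centring, 0.06 after cyclic loess, 0.26 with array weights and 0.34 without b.End5 replicate 2 with the 2 groups alone, and from -0.26 to 0.34 with each array left out. Gbp3 was 0.69 with array weights and 0.93 without b.End5 replicate 2 with the 2 groups alone, and from -0.60 to 0.93 with each array left out. Xist was 0.41 with array weights and 0.81 without b.End5 replicate 2 with the 2 groups alone, and from -2.33 to 0.81 with each array left out. With each array left out, Kdr ran from -0.02 to 0.23 and Selp from -1.71 to 0.18. Same-numbered arrays did not deviate together (r -0.0517, 0.0149 and -0.064), and differently numbered arrays gave r from -0.0682 to 0.1144. Pairing by number was not seen, but these values cannot exclude it. Few arrays were compared, and b.End5 replicate 2 lay far from the other b.End5 arrays. A replicate block gave 647 higher and 1052 lower genes, 1693 of them shared with the calls above, and 13 higher interferon genes. Genes under the no-target level have only bounds, and the cause of the changes was not tested.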

Other observations

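The array labelled b.End5 replicate 2 differed from the other b.End5 arrays at sex-linked genes. Xist, the RNA of the inactive X chromosome, had levels of 12.10, 6.20 and 12.48 on b.End5 arrays 1, 2 and 3, while the Y-linked genes Ddx3y and Eif2s3y had 2.83, 7.84 and 2.65, and 3.14, 9.24 and 3.11. The Y-linked genes Uty and Kdm5d were likewise higher on replicate 2, at 2.59, 5.93 and 2.60, and 2.98, 5.38 and 2.76. None of the 14 sex-linked genes was called between the groups by limma, and 2 had an unadjusted p under 0.05.

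Of 34 Hox genes measured, 6 lay more than 1 log2 unit above the mean of the other b.End5 arrays on replicate 2. Hoxb8 had 3.27, 8.22 and 3.23, Hoxd8 had 5.03, 8.84 and 4.64, and Hoxb5 had 3.23, 6.80 and 3.52 on b.End5 arrays 1, 2 and 3. Serpinh1, the collagen chaperone HSP47, had 5.73, 11.60 and 5.76, against 12.92 to 13.09 in the co-cultured cells. Inhba, a subunit of activin, had 5.93, 12.26 and 6.01. In the other direction, Car2, a carbonic anhydrase, had 12.95, 7.49 and 13.10, Cd24a, a surface glycoprotein, had 10.98, 4.68 and 10.65, and Col5a2, a fibrillar collagen, had 10.58, 3.57 and 10.42. In all, 420 genes lay more than 1 log2 unit above and 653 below the mean of the other b.End5 arrays on replicate 2. These genes were chosen after their values were seen, and the cause was not tested.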
